A study of Mus musculus with 15 samples.

Results

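The S100 genes encode small calcium-binding proteins, and 9 of them were followed in 4T1 cells, a mouse mammary carcinoma line that forms metastases. The members were the rows of the count table with the symbols S100a1, S100a3, S100a4, S100a6, S100a10, S100a11, S100a13, S100a14 and S100a16, which are 9 of 40402 genes listed. Bulk RNA-seq was carried out on untreated cells and on cells given an extract of blackberry (BLA) or blueberry (BLU), or gold nanoparticles prepared with blackberry (BLA-A) or blueberry (BLU-A). All 5 conditions used the same cell line, labelled wild-type and grown in the same medium, and treatment began a day after seeding. The untreated cells received neither extract nor gold, so the effects of the gold core and of the berry compounds on it cannot be told apart in the nanoparticle libraries. The line was grown in culture, without the immune and stromal cells of a tumour. Each condition was 1 sequenced library, from which 3 sets of reads had been drawn and counted as 3 columns.

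S100 proteins carry a pair of EF-hands, the helix-loop-helix fold that holds a calcium ion, and usually work as dimers. Calcium binding opens a surface on the dimer that takes up a partner protein, and S100a10 is the exception that keeps this surface exposed without calcium. Most S100 genes lie next to each other in the genome, and S100a4, also called metastasin, is known for its link to motility and metastasis in mammary tumours, where it binds the heavy chain of non-muscle myosin.

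Columns of the same condition agreed within sampling noise, with a chi-square per degree of freedom between 0.0951 in BLA and 0.475 in BLA-A, so their mean was counted as 1 sample. The 5 libraries held between 25613778 and 26956442 counted reads. Differences between single libraries therefore have no replicate check, and the 95% intervals given with them are exact Poisson or log-normal intervals that cover counting error only. They treat each read as independent. Both mates of a read pair had been counted as single reads, so the intervals can be too narrow, and limits close to 0 or to each other are uncertain. The epithelial markers fitted the label, with Krt18 between 451.3 and 689.4 CPM (TMM-normalized read counts scaled to 1e+06 reads) and Cdh1 between 123.6 and 232.6 CPM, although Krt14 was below 1 CPM in all 5 libraries. Among the 4 fibroblast markers, Pdgfra was between 85.98 and 102.2 CPM, while Pdgfrb, Col1a1 and Dcn reached at most 1.425, 1.8 and 0.327 CPM. The summed level of the 4 leukocyte markers ran from 8.49 to 9.92 CPM, with Lyz2 listed at 0, and that of the 3 endothelial markers from 1.77 to 4.06 CPM.

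All 7 members other than S100a10 and S100a11 lay in 1 cluster on chromosome 3 (GRCm39, GENCODE M39), from the start of S100a13 at 90416091 to the end of S100a6 at 90535843. S100a11 (93414382 to 93435293) and S100a10 (93462213 to 93474510) lay next to each other farther along the same chromosome. RefSeq promoters on GRCm38.p6 were at hand for 7 of the 9 members, S100a1, S100a3, S100a4, S100a6, S100a11, S100a13 and S100a16, with 11 promoters in all. The 250 bases before the start of S100a4 (chr3:90603520-90603769, + strand) and of S100a11 (chr3:93520246-93520495, + strand) are shown because the levels of both genes followed the same order over the 5 libraries. Capitals mark the TATA box (TATAAA), the AP-1 site (TGACTCA or TGAGTCA) and the GC box (GGGCGG), each searched on both strands, and no marked motif overlaps another.
S100a4: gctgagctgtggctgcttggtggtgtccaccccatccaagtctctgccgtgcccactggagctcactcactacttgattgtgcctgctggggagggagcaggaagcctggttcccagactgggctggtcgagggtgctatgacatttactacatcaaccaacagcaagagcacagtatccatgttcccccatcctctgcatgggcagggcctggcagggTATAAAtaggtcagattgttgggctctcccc
S100a11: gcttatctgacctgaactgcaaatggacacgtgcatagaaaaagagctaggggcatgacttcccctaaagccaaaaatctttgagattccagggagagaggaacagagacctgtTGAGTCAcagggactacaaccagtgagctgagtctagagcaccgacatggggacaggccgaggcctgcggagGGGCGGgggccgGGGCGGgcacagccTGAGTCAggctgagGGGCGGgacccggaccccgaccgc

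The S100a4 window held 1 TATA box, which began 31 bases before the start, and no AP-1 site or GC box. The S100a11 window held no TATA box, but 2 AP-1 sites, which began 38 and 136 bases before the start, and 3 GC boxes at 24, 52 and 64 bases. In the promoter table of 32851 windows of this length, a TATA box was present in 12.4%, an AP-1 site in 4.46% and a GC box in 32.7%. Among the 11 promoters of members, 2 held a TATA box, 1 an AP-1 site and 3 a GC box. S100a4 and S100a11 thus shared none of these motifs in these windows. S100a10, whose levels followed the same order of libraries, had no promoter at hand.

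Of the 6 members that reached 1 CPM in at least 1 library, S100a4 had the highest level per kilobase in untreated cells. It was at 386.7 CPM, or 426 CPM per kilobase of annotated exon, ahead of S100a11 at 57.4 and S100a10 at 23.8 CPM per kilobase. S100a13, S100a1 and S100a3 followed at 4.14, 2.97 and 1.49 CPM per kilobase. S100a4 stayed first and S100a3 last when the whole gene span was used as the length, while the ranks of S100a11 and S100a10, and those of S100a13 and S100a1, changed places. These 6 members reached 1 CPM in at least 1 library and entered the comparisons. S100a6, S100a14 and S100a16 did not, and were not ranked. S100a6 was listed at 0, which sets no limit on its level. S100a10 and S100a11 may have lost reads to copies elsewhere in the genome, so the order of levels is uncertain.

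S100a4 stood at 386.7 CPM in untreated cells, 226.6 CPM in BLA, 479 CPM in BLA-A, 303.9 CPM in BLU and 341.2 CPM in BLU-A. The columns behind these means ran from 10266 to 10365 reads in untreated cells, from 6148 to 6203 in BLA and from 11035 to 11131 in BLA-A. BLA was the lowest library and BLA-A the highest, and no counting interval of 1 library reached that of another. The log2 fold change against untreated cells was -0.77 in BLA (95% counting interval -0.82 to -0.72), 0.31 in BLA-A (0.27 to 0.35), -0.35 in BLU (-0.39 to -0.31) and -0.18 in BLU-A (-0.22 to -0.14). S100a4 was thus at 0.586 times the untreated level in BLA and at 1.24 times that level in BLA-A. None of the 4 values was over 1 in size, the limit used here to count a gene as changed between 2 libraries.

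**Figure D1:**
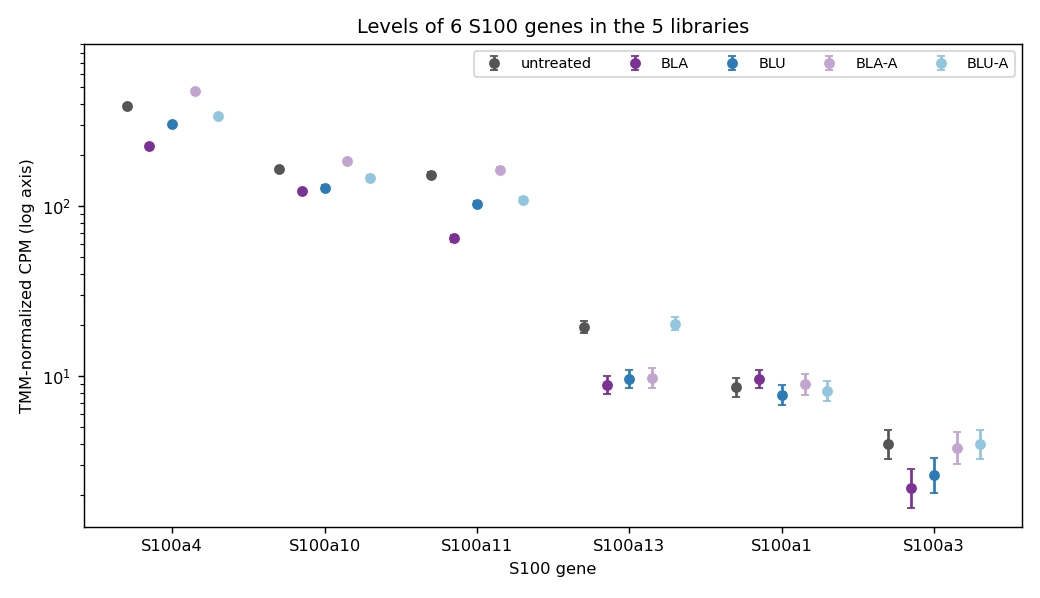
TMM-normalized CPM (log axis) of the 6 S100 genes that reached 1 CPM, with 1 point for each of the 5 libraries and bars for the exact 95% Poisson interval of the count. S100a4 ran from 226.6 CPM in BLA to 479 CPM in BLA-A, and S100a13 was near 10 CPM in BLA, BLU and BLA-A against 19.49 CPM in untreated cells and 20.37 CPM in BLU-A.

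S100a11, which binds annexin A1 and takes part in membrane repair and growth control, showed the widest range. It was at 153.4 CPM in untreated cells, 64.56 CPM in BLA, 163.6 CPM in BLA-A, 103.5 CPM in BLU and 109.4 CPM in BLU-A. BLA was well below the other 4 libraries, and the intervals of BLU (99.78 to 107.4 CPM) and BLU-A (105.5 to 113.5 CPM) overlapped. The log2 fold change against untreated cells was -1.24 in BLA (-1.32 to -1.16), 0.09 in BLA-A (0.03 to 0.16), -0.56 in BLU (-0.63 to -0.50) and -0.49 in BLU-A (-0.55 to -0.42). Stretches of up to 503 bases of S100a11 transcripts matched 2 other loci in GRCm39 at 97% identity or more. Reads that mapped to more than 1 place were not counted, so its level is uncertain to the extent that reads were lost to these copies.

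S100a10, also called p11, pairs with annexin A2 and carries plasminogen-activating enzymes at the cell surface. It was at 165.1 CPM in untreated cells, 122.1 CPM in BLA, 185.1 CPM in BLA-A, 128.1 CPM in BLU and 147.3 CPM in BLU-A. Both plain extracts were below the other libraries, with overlapping intervals (118 to 126.3 CPM in BLA and 123.9 to 132.4 CPM in BLU). The log2 fold change was -0.43 in BLA (-0.50 to -0.37), 0.16 in BLA-A (0.10 to 0.23), -0.36 in BLU (-0.43 to -0.30) and -0.16 in BLU-A (-0.23 to -0.10). Stretches of up to 331 bases of its transcripts matched 11 other loci at 97% identity or more.

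S100a4, S100a10 and S100a11 shared 1 order of libraries, from BLA through BLU, BLU-A and untreated cells to BLA-A. This order was found in 785 of 17647 genes tested, or 4.45%. With the libraries scaled by their total counts alone, the median of all genes in BLA-A moved to -0.18, and S100a10 and S100a11 in BLA-A were then at -0.03 and -0.10 against untreated cells, so that BLA-A came below untreated cells for both. S100a4 kept its order. The summed level of the 5 epithelial markers had the same order, from 801.8 CPM in BLA and 841.8 CPM in BLU to 927.3 CPM in BLU-A, 1039 CPM in untreated cells and 1397 CPM in BLA-A. Most of this sum was Krt8 and Krt18, and single markers had other orders, with Epcam lowest in BLA-A, at 39.72 CPM against 68.79 CPM in untreated cells, and Cdh1 at 123.6 CPM in untreated cells, 124.2 CPM in BLA and 135 CPM in BLU. The part of these markers in the S100 result was not tested. In bulk RNA, fewer cells that express a gene and less of its RNA in each cell cannot be told apart.

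S100a13, which takes part in the release of Fgf1 and interleukin-1α from cells without a signal peptide, had another pattern. It was at 19.49 CPM in untreated cells, 8.89 CPM in BLA, 9.76 CPM in BLA-A, 9.61 CPM in BLU and 20.37 CPM in BLU-A. The libraries fell into a low set of BLA, BLU and BLA-A, with intervals from 7.80 to 11.12 CPM, and a high set of untreated cells and BLU-A, with intervals from 17.86 to 22.17 CPM. The log2 fold change was -1.09 in BLA (-1.31 to -0.87), -0.96 in BLA-A (-1.19 to -0.74), -0.98 in BLU (-1.20 to -0.77) and 0.06 in BLU-A (-0.11 to 0.24). The limit of 1 therefore passed between values that differed by less than their counting intervals, with BLA just inside it and BLU and BLA-A just outside.

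S100a1, known from heart and skeletal muscle where it regulates the ryanodine receptor, varied least. Its level was 8.59 CPM in untreated cells, 9.62 CPM in BLA, 8.94 CPM in BLA-A, 7.80 CPM in BLU and 8.15 CPM in BLU-A. The intervals of all 5 libraries overlapped, and the log2 fold changes lay between -0.13 in BLU and 0.16 in BLA. In GENCODE M39, S100a1 lies within the span of S100a13 on the opposite strand, over 3509 bases. Counting had used RefSeq gene models, whose overlap here was not analysed. Both mates of a read pair had been counted as single reads, so that strand cannot tell the 2 genes apart on a shared stretch, and both levels are uncertain.

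S100a3, best known from the hair cuticle, had the lowest level per kilobase of the 6 in untreated cells. It was at 3.97 CPM in untreated cells, 2.20 CPM in BLA, 3.80 CPM in BLA-A, 2.61 CPM in BLU and 4.00 CPM in BLU-A, on 60 to 106 reads a library. Both plain extracts were the lowest libraries, with log2 fold changes of -0.73 in BLA (-1.18 to -0.27) and -0.52 in BLU (-0.96 to -0.09). In BLA-A and BLU-A the values were -0.06 (-0.47 to 0.35) and 0.01 (-0.38 to 0.40). In GENCODE M39, S100a3 shares 6873 bases of its span with S100a2 on the same strand, and S100a2 was listed at 0 in all columns. Reads on a stretch shared by RefSeq genes were dropped, and the overlap of the RefSeq models here was not analysed. The levels of S100a3 and S100a2 are therefore uncertain.

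**Figure D2:**
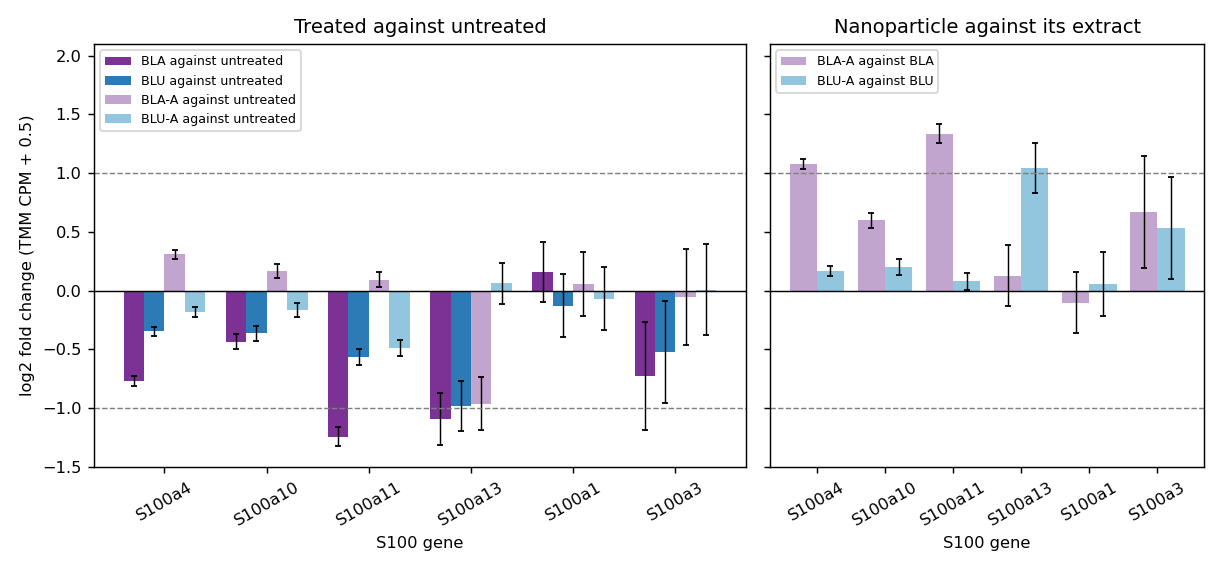
Log2 fold changes on TMM-normalized CPM plus 0.5 for 6 S100 genes, for each treated library against untreated cells (left) and each nanoparticle library against the extract of its own fruit (right). Bars are single-library differences, whiskers are 95% counting intervals and dashed lines mark a log2 fold change of 1 in size. S100a11 reached -1.24 in BLA against untreated cells and 1.33 in BLA-A against BLA.

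Plain extracts were set against untreated cells to ask what the berry compounds alone did. In BLA, 2 of the 6 members passed the limit of 1, S100a11 and S100a13, both downward, against 16.5% of all genes tested. The median log2 fold change of the 6 was -0.75, against -0.01 over all genes, and 5 of the 6 were lower than in untreated cells, as were 50.9% of all genes. In BLU none of the 6 passed the limit, against 10.3% of all genes, although all 6 were lower and their median was -0.44, against -0.01 over all genes, of which 50.5% were lower. At a mean of 100 CPM or more, where S100a4, S100a10 and S100a11 lie, 4.72% of 2439 genes passed the limit in BLA and 2.38% in BLU.

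In the nanoparticle libraries most members lay nearer to their untreated levels than in the extract of the same fruit. S100a13 in BLA-A (-0.96 against -1.09 in BLA) and S100a11 in BLU-A (-0.49 against -0.56 in BLU) stayed close to their extract values. With signs left out, the members' median fell from 0.748 in BLA to 0.129 in BLA-A, and from 0.444 in BLU to 0.117 in BLU-A. Over all genes it rose from 0.414 to 0.494 for blackberry. For blueberry it fell from 0.329 to 0.237, so that direction was not particular to the members. In BLA-A none of the 6 members passed the limit, against 20.9% of all genes, and their median was 0.07, with 2 of the 6 lower. Of all genes past the limit in BLA-A, 40.9% were higher, or 28.4% with scaling by total counts alone. In BLU-A none passed, against 7.85% of all genes, and the median was -0.12, with 4 of the 6 lower. These 4 comparisons share the untreated library, so a high or low value in that library would enter each of them.

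Each nanoparticle was also set against the extract of its own fruit, to ask what the gold formulation changed. In BLA-A against BLA, S100a4 at 1.08 (95% counting interval 1.03 to 1.12) and S100a11 at 1.33 (1.25 to 1.42) passed the limit, 2 of 6 members against 24.5% of all genes, or 12.2% of the 2439 genes with a mean of 100 CPM or more. S100a3 was at 0.67 (0.20 to 1.14), S100a10 at 0.60 (0.53 to 0.66), S100a13 at 0.13 (-0.13 to 0.39) and S100a1 at -0.10 (-0.36 to 0.16). With scaling by total counts alone S100a4 no longer passed the limit and S100a13 was at -0.02. In BLU-A against BLU, S100a13 at 1.05 (0.83 to 1.26) was the 1 member of 6 past the limit, against 6.76% of all genes. S100a3 was at 0.53 (0.10 to 0.96), S100a10 at 0.20 (0.13 to 0.27), S100a4 at 0.17 (0.12 to 0.21), S100a11 at 0.08 (0.01 to 0.15) and S100a1 at 0.06 (-0.21 to 0.33). The members past the limit were thus S100a4 and S100a11 in blackberry and S100a13 in blueberry.

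With the 2 nanoparticle libraries tested against the 2 extract libraries, 0 of the 6 members passed an adjusted p of 0.05 (edgeR quasi-likelihood test, Benjamini-Hochberg adjustment over 17647 genes), against 0% of all genes. S100a4 had a mean of 410.1 CPM in the nanoparticle libraries and 265.2 CPM in the extract libraries, a log2 difference of 0.63 (SE 0.26), with an unadjusted p of 0.0438 and an adjusted p of 0.701 in the edgeR test. At an unadjusted p under 0.05 the test counted 1055 genes, with S100a4 as the only member, and DESeq2 called 36 genes, none of them a member. S100a11 differed by 0.70 (SE 0.32), S100a10 by 0.41 (SE 0.22), S100a13 by 0.70 (SE 0.42), S100a3 by 0.69 (SE 0.53) and S100a1 by -0.03 (SE 0.36). For 5 of the 6 members, all but S100a1, both nanoparticle libraries were above both extract libraries, a pattern found in 18.0% of all genes tested. S100a13 was among the 5 only through BLA-A at 9.76 CPM against BLU at 9.61 CPM, whose counting intervals overlapped, and with scaling by total counts alone 4 members had the pattern, against 16.0% of all genes. Without the BLU-A library, S100a4, S100a10 and S100a11 passed in the edgeR test, with log2 differences of 0.96, 0.67 and 1.07 and adjusted p-values of 0.000178, 0.0047 and 0.000995. In that fit the spread came from BLA and BLU alone, and 4198 of all genes passed. Without BLA, BLU or BLA-A, 0 of the members passed.

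The 4 treated libraries together were tested against the untreated library by the same edgeR test, and 0 of the 6 members passed, against 0.0227% of all genes. The spread came from the 4 treated libraries, which are different treatments, and the lone untreated library was assumed to vary like them. At an unadjusted p under 0.05 there were 483 genes, none of them a member, and DESeq2 called 18 genes, again without a member. The log2 difference was -0.68 for S100a13 (SE 0.50), -0.48 for S100a11 (SE 0.43), -0.33 for S100a3 (SE 0.59), -0.20 for S100a4 (SE 0.38), -0.18 for S100a10 (SE 0.29) and 0.01 for S100a1 (SE 0.37). Blackberry and blueberry libraries were compared in the same way, and again 0 of the 6 members passed, against 0% of all genes (674 genes at an unadjusted p under 0.05 and 27 called by DESeq2, none of them a member). S100a13 had a mean of 9.32 CPM in the blackberry and 14.99 CPM in the blueberry libraries, a log2 difference of -0.69 (SE 0.43). S100a1 was the only member whose fruits did not overlap, at 8.94 and 9.62 CPM in blackberry against 7.80 and 8.15 CPM in blueberry, and 33.1% of all genes had fruits that did not overlap. The counting intervals of S100a1 overlapped in all libraries, and with scaling by total counts alone its fruits overlapped as well. Without BLA, S100a4 and S100a11 passed, with log2 differences of 0.57 and 0.62 and adjusted p-values of 0.00744 and 0.00408, and without BLA-A, S100a11 passed at -0.72 with an adjusted p of 0.0134 (edgeR quasi-likelihood test). With 1 blackberry library left, the spread came from BLU and BLU-A alone, and 5043 of all genes passed without BLA and 339 without BLA-A.

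The remaining members had few or no reads. S100a6, also called calcyclin and a partner of Cacybp, was listed at 0 in all 15 columns. ATP6, a mitochondrial gene that every cell uses, was listed at 0 in all 5 libraries as well, so the 0 sets no limit on the level of S100a6. No stretch of its 15 annotated transcripts of 100 bases or more matched another locus at 97% identity, and no other annotated gene overlaps it. Why it was listed at 0 was not tested. S100a16, which is found in many tissues, had 23 reads in untreated cells, 16 in BLA, 20 in BLA-A, 0 in BLU and 10 in BLU-A. BLU was therefore at least 7.92-fold lower than untreated cells, taken against a floor of 3 reads in that library. This bound takes the 23 untreated reads as exact and leaves out their counting error. The other treated libraries overlapped untreated cells in their counting intervals. S100a14, an epithelial S100 protein, had 4 reads in BLU, 1 in BLA-A and 0 in the other 3 libraries.

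The other S100 genes of the mouse were scarce as well. S100a8, a subunit of the neutrophil protein calprotectin, had 41 reads in untreated cells, 19 in BLA, 18 in BLA-A, 13 in BLU and 15 in BLU-A. All 4 treated libraries were lower, with log2 fold changes from -1.07 in BLU (-1.97 to -0.17) to -0.67 in BLA-A (-1.47 to 0.13), and the counting intervals in BLA and BLA-A included 0. Its usual partner S100a9 had at most 1 read. S100b, an S100 protein of astrocytes and melanocytes, had 38 reads in untreated cells, 54 in BLA, 15 in BLA-A, 85 in BLU and 44 in BLU-A. BLU was the highest library and BLA-A the lowest. S100g, a carrier of calcium in the gut, had 29 reads in untreated cells, 0 in BLA, 3 in BLA-A, 7 in BLU and 19 in BLU-A. For S100g, BLA was thus at least 9.87-fold lower against the floor of 3 reads, with the untreated reads again taken as exact. S100a8 and S100g reached 1 CPM in untreated cells alone, so in the filtered table they had to be lower in the treated libraries. S100a5 had 12 reads in BLU and at most 1 in the others. S100a7l2 had at most 1 read, and S100a2, S100a7a and S100z were listed at 0.

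**Figure D3:**
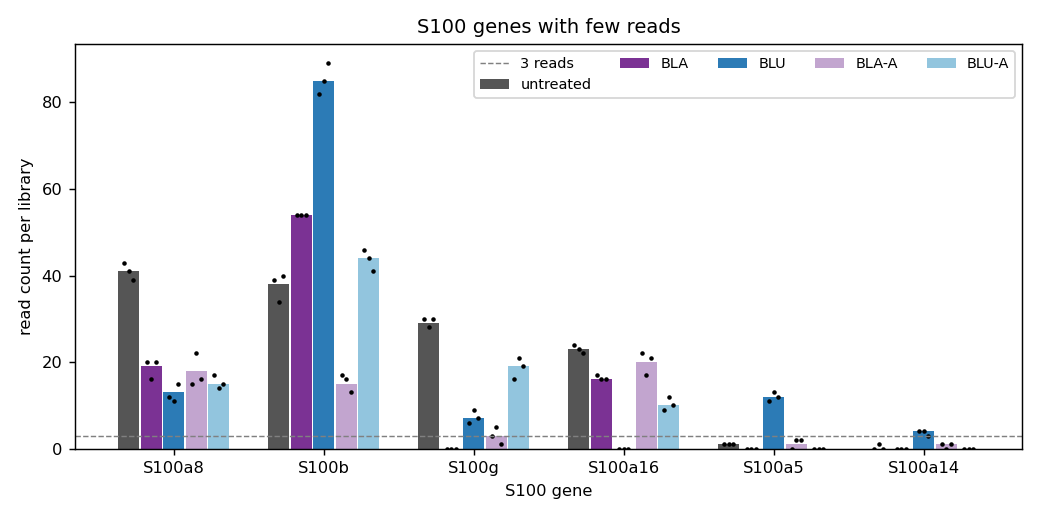
Read counts per library of 6 S100 genes with few reads. Bars are the means of the 3 columns of a condition, dots are the columns and the dashed line marks 3 reads. S100a16 and S100g had 0 reads in BLU and BLA, against 23 and 29 reads in untreated cells.

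Annexins bind membranes in the presence of calcium and take S100 dimers as partners. Of 12 annexin genes, 11 reached 1 CPM. Anxa2, the partner of S100a10, was at 468 CPM in untreated cells, 393.7 CPM in BLA, 796.6 CPM in BLA-A, 403.9 CPM in BLU and 500.5 CPM in BLU-A, and its log2 fold change was -0.25 in BLA, 0.77 in BLA-A, -0.21 in BLU and 0.10 in BLU-A. It was highest in BLA-A and lowest in BLA, and so was S100a10. Anxa1, a partner of S100a11, stayed between 220.2 CPM in BLA and 254.5 CPM in BLU. Anxa11 was highest in BLA-A at 198.6 CPM, against 131.6 CPM in untreated cells. The annexins past the limit were Anxa9 in BLA at 1.34 and Anxa8 in BLA-A at 1.13 upward, and Anxa13, which was listed at 0 in BLA and was under 1 CPM in untreated cells, downward in BLA and BLA-A. Anxa8 and Anxa13 were no longer past it with a pseudocount of 2 CPM. The median of the 11 was -0.03 in BLA, 0.36 in BLA-A, 0.08 in BLU and 0.03 in BLU-A.

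**Figure D4:**
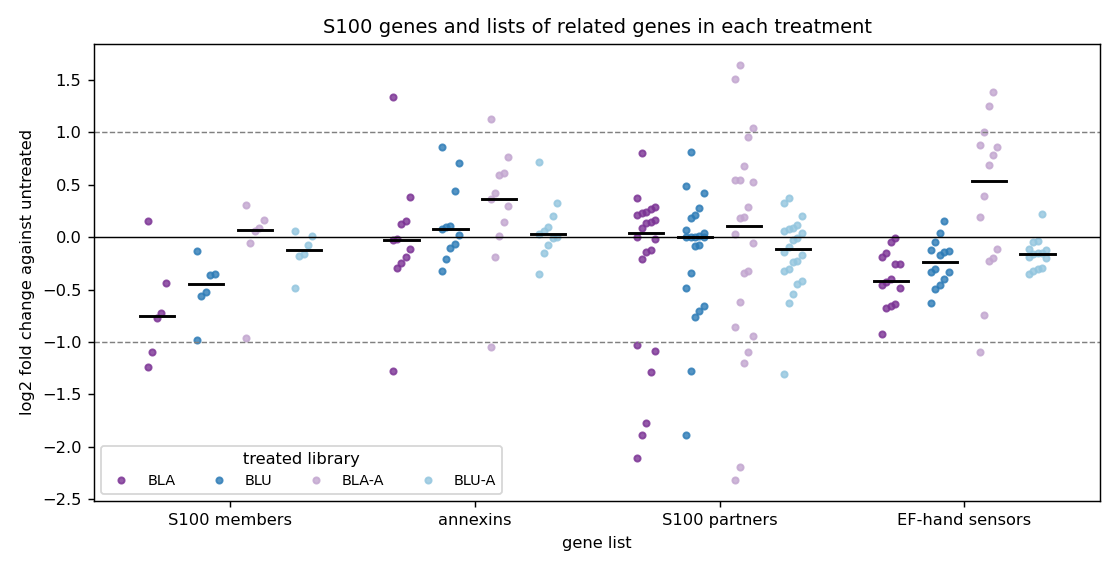
Log2 fold change of each treated library against untreated cells for the 6 S100 members, 11 annexins, 22 S100 partners and 14 EF-hand sensors that reached 1 CPM. Points are genes, black bars are medians and dashed lines mark a log2 fold change of 1 in size. The median of the S100 members was -0.75 in BLA, and that of the EF-hand sensors was -0.41 in BLA and 0.54 in BLA-A.

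All 22 genes of the list of S100 partners and receptors reached 1 CPM. Of these, 6 passed the limit downward in BLA, 4 in BLA-A, 2 in BLU and 1 in BLU-A, while 3 passed it upward, all in BLA-A. Over all genes tested the share past the limit, in either direction, was 16.5% in BLA, 20.9% in BLA-A, 10.3% in BLU and 7.85% in BLU-A. The 3 were Bsg, a receptor of S100a9 that induces matrix proteases, at 1.65, Plaur, the receptor of urokinase, at 1.51, and Plat, the tissue plasminogen activator, at 1.04. Cacybp, the partner of S100a6, was at 124.2 CPM in untreated cells and 60.48 CPM in BLA, a log2 fold change of -1.03. The largest downward values belonged to genes of low level, Ryr2 at -2.32 in BLA-A, Syt1 at -2.19 in BLA-A and Ryr1 at -1.89 in BLA, all under 5 CPM in untreated cells. The value of Ryr1, like that of Plat, was no longer past the limit with a pseudocount of 2 CPM. Ryr1 reached 1 CPM only in untreated cells and BLU-A, at 1.76 and 1.06 CPM, so it had to be lower in the others. Ager passed the filter through the same libraries, and both genes are among those counted downward in BLA and BLA-A. Myh9, the myosin heavy chain bound by S100a4, was at 839.5 CPM in untreated cells, 925.5 CPM in BLA, 1224 CPM in BLA-A, 843.5 CPM in BLU and 788.4 CPM in BLU-A. Like S100a4 it was highest in BLA-A, but it was not lower in the plain extracts.

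Fgf1, the cargo of S100a13, was at 12.63 CPM in untreated cells, 22.44 CPM in BLA, 14.42 CPM in BLA-A, 22.57 CPM in BLU and 16.49 CPM in BLU-A. It was highest in the libraries of both plain extracts, where S100a13 was low, but not in BLA-A, where S100a13 was low as well. Il1a, which S100a13 also helps to release, was at 54.44 CPM in untreated cells and 106.3 CPM in BLA-A. Trp53, whose product several S100 proteins bind, was at 73.14 CPM in untreated cells and 37.77 CPM in BLA-A, a log2 fold change of -0.94. Ahnak, a scaffold held by S100a10 and annexin A2, stayed between 4541 CPM in BLU-A and 5918 CPM in BLA. Of the receptors, Tlr4 was between 33.09 CPM in BLU and 50.68 CPM in BLA-A, and Ager was at 1.35 CPM in untreated cells, 0.981 CPM in BLU-A, 0.302 CPM in BLA-A and 0.257 CPM in BLA, and was listed at 0 in BLU. It passed the filter through untreated cells and BLU-A, so it had to be lower in the others.

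The 14 other EF-hand genes, among them calmodulins, calpains and reticulocalbins, were also followed. In BLA all 14 were lower than in untreated cells, as were 50.9% of all genes, and their median was -0.41 against -0.01 over all genes. None of the 14 passed the limit in BLA, against 16.5% of all genes. In BLA-A the median was 0.54 against -0.01 over all genes. There Capn1 at 1.39, Efhd2 at 1.26 and Chp1 at 1.01 passed the limit upward while Rcn1 at -1.10 passed it downward, 4 of 14 against 20.9% of all genes. In that library Capn1, the large subunit of µ-calpain, rested on 122.5 CPM against 46.56 CPM in untreated cells. In BLA-A against BLA, 6 of the 14 passed the limit upward and 0 downward, against 24.5% of all genes in either direction. Their median there was 0.915, against 0.634 for the S100 members and -0.08 over all genes. The annexins had a median of 0.439 and the partners one of 0.248, so higher levels in BLA-A than in BLA were not particular to the members. In the test of nanoparticles against extracts, 0 of the listed annexins, partners and sensors passed an adjusted p of 0.05, and the smallest adjusted p in each list was 0.701 (edgeR quasi-likelihood test).

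Genes around the members were looked at for shared changes. Within 100 kb of the cluster of 7 members, 6 genes other than members reached 1 CPM. Of these only S100a8 passed the limit, in BLU, where 10.3% of all genes did. S100a8 reached 1 CPM in untreated cells alone, so it had to be lower in the treated libraries. In BLA 5 of the 6, S100a8 among them, were lower than in untreated cells, as were 50.9% of all genes. Their median was -0.44, against -0.01 over all genes and -0.75 for the members. Each of the remaining treatments also had 5 of the 6 neighbours lower. For BLU the neighbours' median was -0.19 and the members' -0.44, and for BLU-A they were -0.09 and -0.12. With BLA-A the signs differed, at -0.47 for the neighbours and 0.07 for the members. Whether neighbours and members changed together was not tested. Near S100a10 and S100a11 only Tchh reached 1 CPM, at 0.94 in BLA, where S100a11 was at -1.24, and at -0.62 in BLA-A.

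The genes most like S100a4 were sought among 9764 genes with a mean of at least 10 CPM, by the root mean square difference in log2 fold change over the 4 treatments. The 5 nearest were Sf3a2 at 0.03, Msmo1 at 0.04, 2810025M15Rik at 0.05, Mrpl45 at 0.05 and Spag7 at 0.06. Sf3a2, a splicing factor subunit, was at -0.74 in BLA, 0.30 in BLA-A, -0.36 in BLU and -0.12 in BLU-A. Of the other members, S100a10 was nearest to S100a4 at 0.18, with 234 genes nearer, followed by S100a3 at 0.22, S100a11 at 0.32, S100a1 at 0.50 and S100a13 at 0.74.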

How the data were processed

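Bulk RNA-seq of 5 conditions of 4T1 cells was examined. The authors deposited counts of reads per gene, without normalization, in 3 columns per condition. Per the study's methods and supplement, ribosomal RNA was removed, mates were merged and aligned as single reads to GRCm39 by STAR, and reads with a unique place were counted on whole genes, introns included, so intronic reads enter each value and reads on a stretch shared by 2 RefSeq genes are dropped. The authors also deposited tables of their own fold changes, p-values and enrichment scores, which were not used here.

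The 3 columns of a condition were averaged and rounded into 1 library. Genes with 1 CPM in at least 1 library were kept (17647) and normalized by TMM in edgeR 4.0.16, with log2 fold changes on CPM plus 0.5, which understates changes of low genes. Groups of libraries were compared by edgeR's quasi-likelihood test, adjusted by Benjamini-Hochberg, and DESeq2 1.42.0 was an alternative. The study's statistics section speaks in general of independent biological replicates, while its supplement describes sets of reads from 1 library. The columns agreed within sampling noise and were treated as the latter, so p-values measure the spread between these libraries. The labels give each sample a batch of its own, so batch and sample cannot be told apart. Copies were sought by blastn 2.17.0. R 4.3.3 and Python 3.11.15 were used, and the tests were tested on simulated data. Positions came from GENCODE M39.

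The members and gene lists were chosen with earlier results of these data known. All members were named, with the direct partners and up to 4 genes with the largest change in each list. The rule does not cover Plaur, Plat, Il1a and Tchh, picked once their values had been seen. Alternatives covered scaling, pseudocount, filter, test, library and replicate. The total counts set the floor of 3 reads at 0.109 to 0.130 CPM. The labels number the columns from 1 to 3 in each condition, and deviations of columns with the same number had a mean correlation of -0.003 over 30 pairs.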

Additional observations from a re-analysis of the deposited data

Results flagged for a closer look

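Against untreated cells, 3 S100 members differed in direction between the 2 nanoparticles, with counting intervals that excluded 0 in both. S100a4 was at 0.31 in BLA-A and -0.18 in BLU-A, a difference of 0.489 on the log2 scale. S100a10 was at 0.16 and -0.16, a difference of 0.328, and S100a11 at 0.09 and -0.49, a difference of 0.578. Each rests on 1 library per condition, and the difference itself was not tested. With scaling by total counts alone S100a10 and S100a11 were below untreated cells in BLA-A too, at -0.03 and -0.10, and the opposite directions then remained for S100a4 alone.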

How the results depend on the processing

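No called member value turned its direction under any of 9 alternatives. Under these, 356 values were compared, those of the 6 members and those past the limit of S100a8 and S100g, which are not members. Of the 356 values, 336 stayed within the counting interval. The 20 that moved out of it all belonged to members. So did the 9 that differed in sign, of which S100a10 in BLA-A, at 0.16, was the largest in size. The count of members past the limit moved in these cases. In BLA it was 1 in place of 2 with a pseudocount of 2 CPM. In BLU it was 1 in place of 0 with median-ratio size factors, with a pseudocount of 0.1 CPM (S100a13 in both) and with no filter on low counts (S100a16). In BLA-A it was 1 in place of 0, S100a13, with scaling by total counts alone and with 1 CPM required in every library, and ran from 0 to 1 without 1 of the replicates. In BLA-A against BLA it was 1 with scaling by total counts alone, and in BLU-A against BLU it was 0 with a pseudocount of 2 CPM. The moves of S100a13 and S100a4 came from values within 0.1 of the limit. Over all genes, a pseudocount of 2 CPM lowered the genes past the limit from 2904 to 942 in BLA, from 1812 to 400 in BLU, from 3695 to 1861 in BLA-A and from 1385 to 209 in BLU-A, from 4324 to 2382 in BLA-A against BLA and from 1193 to 137 in BLU-A against BLU. Requiring 1 CPM in every library gave 1085, 568, 1833, 277, 2684 and 196 in the same order, and a pseudocount of 0.1 CPM gave 2743 in BLU, 2367 in BLU-A and 2110 in BLU-A against BLU.

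No paired analysis of libraries was possible because each condition is 1 library. With the 15 columns as separate samples, whose spread is that of repeated draws from 1 library, 5 members passed in nanoparticles against extracts and 2 in blackberry against blueberry, both without and with the replicate block, and 0 passed in the treated libraries against untreated cells with it. Over all genes the edgeR test of nanoparticles against extracts counted 8909 genes without the block and 7750 with it, against 0 over libraries. The numbers did not pair the columns. Leaving out 1 library gave 3 members in nanoparticles against extracts (without BLU-A) and, in blackberry against blueberry, 2 without BLA and 1 without BLA-A. Over all genes, the test of treated libraries counted 4, with 2 where 1 CPM was required in every library, 46 without BLA-A, and 3556 over columns without the block and 2507 with it. That of nanoparticles against extracts counted 7 without BLA, 1 without BLU, 51 without BLA-A and 4198 without BLU-A. That of the fruits counted 5043 without BLA, 21 without BLU, 339 without BLA-A and 23 without BLU-A, and 6938 and 5615 over columns without and with the block. DESeq2 called 0 members in each test, and 18, 36 and 27 genes in all. With no filter on low counts the edgeR test counted 554 genes in nanoparticles against extracts and 289 in blackberry against blueberry.

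Among the related genes past the limit, none turned its direction. Of their 28 values past the limit, 17 were no longer past it with a pseudocount of 2 CPM, among them Ager, Ryr1 and Anxa13 in BLA. Scaling by total counts alone took 3 below it in BLA-A, Chp1 (0.81), Plat (0.86) and Anxa8 (0.955). At a depth of 25613778 to 26956442 reads, S100a14 had at most 4 reads and gets no fold change, and S100a16 in BLU and S100g in BLA, at 0 reads, get bounds only.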
